A study of Mus musculus with 2 samples.

Results

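The cells described here form cluster 11 of the 29 clusters that the authors drew over all cells of 2 droplet libraries from mouse incisor, and they are the cells with the transcripts of DNA replication and mitosis. Members are all cells that carry cluster number 11 in the authors' cell table: 745 of 23528 cells, of which 276 lie among the 13820 cells of the Memo1-mutant library and 469 among the 9708 cells of the control library. The mutant library was made from 1 mouse of genotype Memo1;K14CRE, in which Cre is driven by the promoter of keratin 14 and so acts in epithelium. The control library was made from 1 control mouse, and both animals were at postnatal day 20. The harvested region around the cervical loop held epithelium and mesenchyme, and the tissue was digested with trypsin and dispase before about 10000 cells of each suspension were loaded. With 1 mouse and 1 library per group no test compares the genotypes, and every interval below is a 95% interval that covers counting error only.

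The mouse incisor grows throughout life. Dividing cells of the cervical loop supply the enamel epithelium, in which ameloblasts leave the cell cycle before they secrete enamel, and dividing cells of the neighbouring mesenchyme supply pulp and odontoblasts. Genes of S phase encode the machinery that copies DNA, and genes of G2 and M phase encode the regulators and motors that condense and separate chromosomes. Memo1 encodes a mediator of cell motility downstream of receptors of the ErbB family.

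Summed over its cells, cluster 11 held 2967484 UMIs (unique molecules counted) in the mutant library and 4124331 in the control library. The median cell had 2176 UMIs in the mutant and 1548 in the control library, against 6798 and 2643 over all cells. Depth varied widely: 80 mutant and 143 control members had under 1000 UMIs, and 110 and 147 had at least 5000. Both libraries used the barcodes of 139 cells in common, 9 of them in cluster 11, and 0 of these pairs had equal counts. Doublets were not called. The mutant library held 170307 UMIs of Xist, which marks an inactive X chromosome, and the control library 49, while Y-linked Ddx3y had 5 UMIs in the mutant and 5024 in the control library, so sex and genotype cannot be told apart. Memo1 had 85 UMIs (28.6 CPM, counts per 1000000 UMIs of the summed cells) in mutant and 136 UMIs (33.0 CPM) in control members. The deleted part of the gene is not given in the sources used here, so this 3' tag does not check the deletion.

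The marker genes of the label stood high in cluster 11, which is a description, since the clustering used them. Mki67, which encodes the proliferation antigen Ki-67, stood at 392.2 CPM in mutant and 355.9 CPM in control members, and Top2a, the topoisomerase that untangles replicated DNA, at 857 and 764 CPM. Over all other cells of both libraries together the levels were 12.2 CPM for Mki67 and 14.01 CPM for Top2a. After each cell was thinned to 1000 UMIs, 98 of 196 mutant members (interval of the share 42.8% to 57.2%) and 164 of 326 control members (44.7% to 55.9%) held a UMI of either gene, and 66.7% and 64.2% did so unthinned. In cluster 14, the deepest cluster, whose cells are rich in the enamel genes Amelx and Ambn, 0 of 349 mutant and 0 of 276 control cells did so after thinning. Unthinned, at median depths of 32137 UMIs in mutant and 34016 UMIs in control cells, 5.44% of the mutant and 6.16% of the control cells of cluster 14 held such a UMI.

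The 20 genes standing farthest above the other cells were, in order, Hist1h2ap, Ube2c, Top2a, Cenpf, 2810417H13Rik, Birc5, Hist1h2ae, Nusap1, Cdc20, Cdk1, Cdca8, Cks2, Hist1h1b, Prc1, Mki67, Hmgb2, Cdca3, Tpx2, Hmmr and Ccna2. They are given as a description, since the clustering used them; 457 of 2868 genes, or 15.9%, were at least 2-fold above the other cells. They encode histones, the mitotic kinase Cdk1 and its cyclin partner Ccna2, parts of the machinery that destroys mitotic cyclins (Ube2c, Cdc20), and proteins of the centromere and spindle (Cenpf, Birc5, Nusap1, Tpx2). In all, 14 of the 20 belonged to the G2/M list and 0 to the S list. Between libraries 0 of the 20 lay beyond 2-fold. The widest gap was that of the histone gene Hist1h2ap, with 885.6 CPM in mutant and 1561 CPM in control members. Histone genes have near-identical copies, and how the counting shared reads among them is not given in the sources used here.

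Many genes that peak in G2 and M carry a pair of short promoter elements, the cell cycle homology region and the CCAAT box. The DREAM and MuvB complexes bind such promoters through the first of these. Promoter sequences (250 bases before to 50 bases after the start, from RefSeq, build GRCm38.p6) were found for 17 of the 20 leading genes and for 47 of the 54 genes of the G2/M list. The first element, read as TTTGAA and in its other form as TTCGAA, stood in 36 of the 47 list promoters (76.6%), on either strand, against 5854 of 27025 genes (21.7%). CCAAT, on either strand, stood in 36 (76.6%), against 41.1% of all genes, and both elements in 29 (61.7%), against 8.61%. Among the 17 leading genes, 13 (76.5%) held both. A gene with several promoters was counted as holding an element when 1 of them did. Under 80% of the S list could be matched (30 of 42), so no share is given for it. The promoters of the first 3 leading genes of the G2/M list with both elements are shown because their letters carry this shared pattern; capitals mark the letters of both elements and their reverse complements, and neighbouring matches can overlap. A match describes letters in the window and no binding was measured.
Ube2c promoter, chr2:164769679-164769978, plus strand: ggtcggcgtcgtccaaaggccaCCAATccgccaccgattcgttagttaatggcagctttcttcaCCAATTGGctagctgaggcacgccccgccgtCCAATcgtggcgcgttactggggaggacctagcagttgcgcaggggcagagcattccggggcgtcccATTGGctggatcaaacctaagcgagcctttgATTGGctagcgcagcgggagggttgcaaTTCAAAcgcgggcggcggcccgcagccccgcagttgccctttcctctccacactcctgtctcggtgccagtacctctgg
Top2a promoter, chr11:99024140-99024439, minus strand: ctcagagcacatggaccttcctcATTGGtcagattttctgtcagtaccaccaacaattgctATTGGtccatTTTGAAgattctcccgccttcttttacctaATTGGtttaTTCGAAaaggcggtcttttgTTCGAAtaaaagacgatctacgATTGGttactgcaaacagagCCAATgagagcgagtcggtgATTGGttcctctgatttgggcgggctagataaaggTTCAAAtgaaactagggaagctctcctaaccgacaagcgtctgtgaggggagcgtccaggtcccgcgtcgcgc
Cenpf promoter, chr1:189688037-189688336, minus strand: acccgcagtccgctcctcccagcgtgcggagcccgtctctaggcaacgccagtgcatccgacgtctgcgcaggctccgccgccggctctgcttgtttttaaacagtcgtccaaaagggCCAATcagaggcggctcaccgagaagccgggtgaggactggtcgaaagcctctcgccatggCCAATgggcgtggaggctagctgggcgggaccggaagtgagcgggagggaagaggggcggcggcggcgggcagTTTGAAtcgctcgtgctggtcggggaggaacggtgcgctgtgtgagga
The Top2a window holds 4 matches of the first element and 6 of CCAAT, that of Ube2c 1 and 6, and that of Cenpf 1 and 2.

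The G2/M list stood at 13269 CPM in mutant and 14900 CPM in control members, and the S list at 3905 and 2991 CPM. Across the 28 other clusters the G2/M list had a median of 898 CPM in mutant and 969 CPM in control cells. The next highest was cluster 28, with 4137 CPM in mutant and 5757 CPM in control cells. Shallow and deep members alike carried the signal. Members with under 1000 UMIs had a G2/M level of 12356 CPM in the mutant and 11527 CPM in the control library, against 986 and 1003 CPM in other cells of that depth. At 5000 UMIs or more it was 13390 CPM in mutant and 15245 CPM in control members. Not all cells with Mki67 and Top2a transcripts lay in cluster 11. Of the cells with at least 2 UMIs of these genes after thinning, 52 of 79 mutant cells (65.8%, 54.3 to 76.1) and 84 of 101 control cells (83.2%, 74.4 to 89.9) were members, and those outside lay mostly in clusters 4, 15, 21 and 23.

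**Figure D1:**
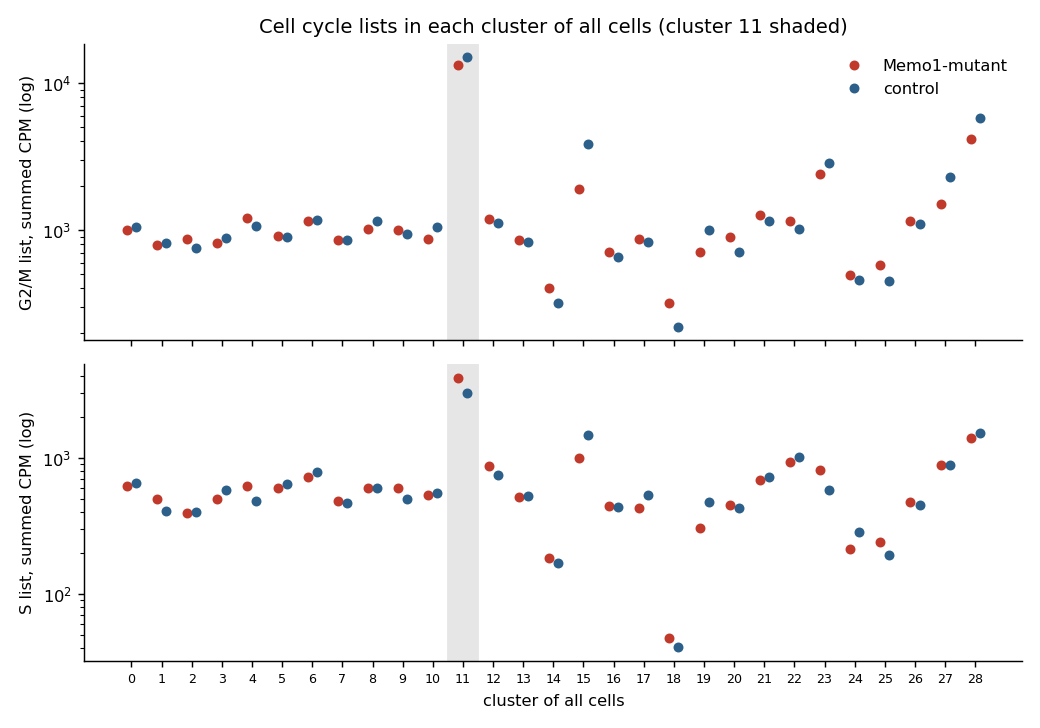
Summed level of the G2/M list (top) and the S list (bottom) in CPM, on log axes, in each of the 29 clusters, with the Memo1-mutant library in red left of the control library in blue. Cluster 11 (shaded) stands at 13269 and 14900 CPM for G2/M, above cluster 28 at 4137 and 5757 CPM.

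Cycling cells made up a smaller share of the mutant library. They were 2.00% (1.77 to 2.24) of the mutant and 4.83% (4.41 to 5.28) of the control cells. Among cells of at least 5000 UMIs the shares were 1.36% (1.12 to 1.64) in the mutant and 3.42% (2.89 to 4.0) in the control library. A share of droplets depends on which other cells each dissection and digestion released, and the part of that in this difference was not tested. Membership is not the same as cycling: members held 45.2% of all Mki67 UMIs in the mutant and 60.9% in the control library. Over all cells thinned to 1000 UMIs, 79 of 10820 mutant and 101 of 6915 control cells held at least 2 UMIs of Mki67 and Top2a. Median mitochondrial content was 6.65% in mutant and 10.1% in control members.

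Which lineage the cycling cells belonged to was read from their other genes. A cell was called when 1 of 13 marker lists led with at least 5 UMIs and at least 2 times the next list, a rule set with the data in view. It called 194 of 276 mutant and 270 of 469 control members. The uncalled cells were shallow, with medians of 830.5 UMIs in the mutant and 941 UMIs in the control library. Of the called cells, 40 in the mutant and 58 in the control library lay within 1.5 times of a limit of the rule.

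Among the called cells mesenchyme was the largest lineage in both libraries, while 82 mutant and 199 control members stayed uncalled. Cells called by the collagens Col1a1, Col1a2 and Col3a1 and the transcription factors Prrx1, Twist1 and Msx1, among other markers, were 113 of the called mutant members (58.2%, 51.0 to 65.3) and 145 of the called control members (53.7%, 47.6 to 59.8). Epithelial cells, called by Krt14, Epcam, Krt5 and others, were 25 (12.9%, 8.52 to 18.4) in the mutant and 66 (24.4%, 19.4 to 30.0) in the control library. Macrophage or monocyte markers such as C1qa and Lyz2 led in 35 mutant (18.04%) and 39 control members (14.4%), with median depths of only 1285 UMIs in the mutant and 1209 UMIs in the control library. Mural markers, those of pericytes and smooth muscle such as Rgs5 and Acta2, led in 12 mutant (6.19%) and 6 control members (2.22%). Endothelial cells were 4 in the mutant and 14 in the control library, and 5 mutant and 0 control members were erythroid. Lists for lymphocytes, granulocyte progenitors, mast cells, glia, osteoclasts, osteoblasts with odontoblasts, and skeletal muscle called 0 members in either library. For osteoblasts with odontoblasts this 0 does not show absence, since a call also needs 2 times the mesenchyme list. In the members matched below to cluster 22 the mesenchyme list stood at 3894 CPM in mutant and 5962 CPM in control cells. The list of osteoblasts with odontoblasts stood at 169 and 166 CPM there.

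The rule sets the gap between a cell's own list and the others, so the following levels describe the called cells. In mesenchymal members the mesenchyme list had a median of 10403 CPM in the mutant and 5311 CPM in the control library, and the epithelial list 35.0 and 80.4 CPM. In epithelial members the epithelial list had a median of 5580 CPM in the mutant and 5599 CPM in the control library, and the mesenchyme list 263 and 267 CPM. In macrophage members the median of the macrophage list was 17363 CPM in the mutant and 15886 CPM in the control library, and that of the mesenchyme list 1042 and 1199 CPM. The mural calls also carried mesenchyme markers, with medians of 4307 CPM in the mutant and 3116 CPM in the control library.

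A second view matched each member of at least 5000 UMIs to the other cluster whose profile it fitted best, over 18071 genes. Left out were 1555 genes, among them those of the cell cycle and histone, ribosomal protein, mitochondrial, haemoglobin and sex-linked genes. Every gene more than 1.5-fold above the other cells in cluster 11, after 10 CPM was added on both sides, was also left out. The genes used held 47.3% of the UMIs of cluster 11. On cells held out from those profiles the match was right for 92.8%. These held-out cells came from the other clusters, so that share does not measure how well cycling cells were matched. Of the members matched, 5 clusters took most in both libraries. Cluster 22, led by Bglap, Smpd3, Dkk1, Sgms2, Plac8 and Notum, took 23 of 110 mutant members (20.9%, 13.7 to 29.7) and 60 of 147 control members (40.8%, 32.8 to 49.2). Cluster 13, led by Bmp3, Dkk2, Lrrc15 and collagens, took 40 (36.4%, 27.4 to 46.1) in the mutant and 19 (12.9%, 7.96 to 19.4) in the control library. Both are mesenchymal: the 82 mesenchyme-called members near cluster 22 and the 59 near cluster 13 made up most of that lineage. The order of these mesenchymal matches was opposite between the 2 libraries. Smpd3, Dkk1, Plac8 and Notum were among the genes left out of the match. Bglap alone stood at 2810.5 CPM in cluster 22. In members near cluster 22 the whole list of osteoblasts with odontoblasts, Bglap included, stood at 169 CPM in mutant and 166 CPM in control cells.

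On the epithelial side, cluster 12 took 15 mutant (13.6%) and 24 control members (16.3%). It is led by Grp, by the Wnt antagonist gene Sfrp5 and by Pthlh, and its leading genes include Epcam, an adhesion molecule of epithelia. Cluster 20, led by keratin Krt17, the signal gene Shh and the desmosome gene Dsp, took 3 mutant (2.73%) and 12 control members (8.16%). Cluster 10, led by the pericyte genes Rgs5 and Notch3, took 11 mutant (10.0%) and 3 control members (2.04%). Cluster 14, with its enamel transcripts, took 0 members in either library. Cluster 2 took 1 mutant and 8 control members. Cluster 0, a shallow cluster with a median of 767 UMIs, took 1 mutant and 13 control members. Of the members under 5000 UMIs, another 67 in the mutant and 224 in the control library were nearest cluster 0. The match was not checked on cells of that depth, so their lineage stays unknown by this view.

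**Figure D2:**
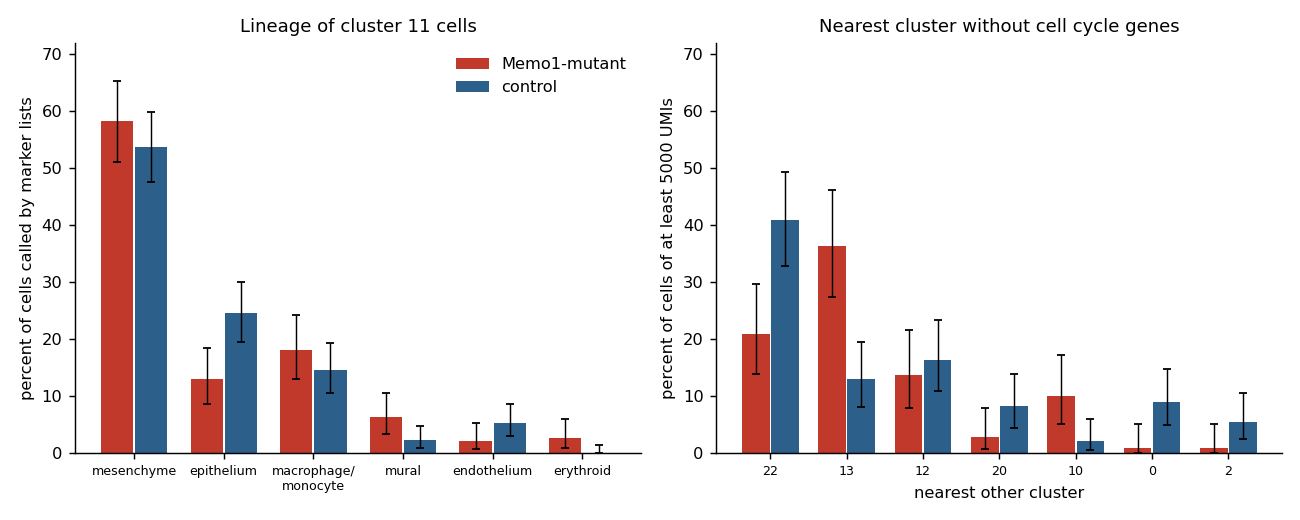
Left, percent of marker-called cluster 11 cells in each lineage; right, percent of members of at least 5000 UMIs nearest each other cluster. Bars are Memo1-mutant (red, left) and control (blue, right) with 95% Clopper-Pearson intervals; cluster 22 took 20.9% and 40.8%, cluster 13 took 36.4% and 12.9%.

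Cycling cells were also set beside the cells of the cluster they matched. Members near cluster 22 were 15.03% (9.77 to 21.7) of themselves plus the cells of cluster 22 in the mutant and 26.2% (20.6 to 32.4) in the control library, all of at least 5000 UMIs. For cluster 20 the shares were 1.63% (0.338 to 4.69) in the mutant and 5.69% (2.97 to 9.72) in the control library. For cluster 13 they were 8.57% (6.19 to 11.48) in the mutant and 7.98% (4.87 to 12.2) in the control library, and the intervals overlapped almost wholly. Cluster 12 went the other way, with 9.55% (5.45 to 15.3) in the mutant and 5.22% (3.37 to 7.66) in the control library, again with overlapping intervals. Against all cells that the authors labelled as ameloblast lineage, the epithelial cycling cells were 1.07% (0.696 to 1.58) of the sum in the mutant and 2.17% (1.68 to 2.75) in the control library. That rests on 25 mutant and 66 control cells called by markers, beside 2303 and 2981 labelled cells. By nearest cluster, 36 mutant and 65 control members matched a cluster that holds labelled cells. At 5000 UMIs or more these were 19 and 47, against 16 and 50 by markers. None of the 745 members carries that lineage label, so the cycling epithelium stands outside the authors' ameloblast set.

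Between libraries, 181 of the 3221 genes tested in cluster 11 as a whole were at least 2-fold higher in the mutant (5.62%) and 30 at least 2-fold lower (0.931%), with the counting interval past 1. After thinning to 1000 UMIs 52 were higher, and without the CPM filter 836 were higher and 224 lower; with per-cell means 18 were lower. A gene was tested if 1 library reached 50 CPM and both together 50 counts. These sums mix lineages, and the lineage markers moved with them: the mesenchyme list was higher in the mutant for 11 of its 15 genes and lower for 1, the mural list higher for 9 of 9, and the epithelial list lower for 13 of 15 and higher for 0. The background by interval alone was 20.8% higher and 9.56% lower. Col3a1 stood at 2234 CPM in mutant and 628 CPM in control members, and Krt14 at 163 and 331 CPM. Haemoglobin had 12838 CPM in mutant and 270 CPM in control members, and 83.4% of the mutant counts lay in the 5 erythroid cells.

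The genes ranked highest in the mutant by the nearer bound of the interval included Cartpt, Mmp13, Fabp4, Apod, Tnn, Olfml2b, Fabp7, Acta2, Postn, Mylk, Pbld2, Ctgf, Tagln and Rgs5. Several are genes of the contractile cells around vessels. Rgs5, a regulator of G protein signalling that marks pericytes, had 1230 CPM in mutant and 235 CPM in control members (ratio 5.22, 4.86 to 5.61). Acta2, smooth muscle actin, had 478 and 62.1 CPM. The genes ranked lowest were Gm10709, Gm8797, Dkk1, Cwc22, Smpd3, Hist1h2an, Mt1, Tubb3, Ambn, Plac8, Fgf3, Satb1, Wnt6, Notum and Srd5a1. After thinning to 1000 UMIs the log2 ratio was 0.15 for Dkk1 and 0.37 for Srd5a1, the opposite direction. Smpd3, Dkk1, Plac8 and Notum are leading genes of cluster 22. Gm10709, a processed pseudogene, had 2 UMIs in mutant and 2413 in control members, and it was as one-sided elsewhere, with all other cells holding 185 UMIs in the mutant and 28501 in the control library. Cwc22 and Gm8797 were likewise lower throughout, at 0.245 and 0.153 of the control level in all other cells.

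Transcripts of S phase stood higher in the mutant members. Of the 42 genes of the S list, 30 were higher by their counting interval and 1 was lower (Cdca7), against 20.8% higher and 9.56% lower over all genes. The median log2 ratio was 0.47, against 0.09 over all genes. Pcna, the sliding clamp of DNA polymerase, had 248 CPM in mutant and 167 CPM in control members (ratio 1.49, 1.34 to 1.65). Ccne1 and Ccne2, the cyclins that start S phase, had ratios of 2.84 (1.97 to 4.15) and 2.26 (1.84 to 2.80). The origin licensing factor Cdc6 had 30.0 CPM in mutant and 12.1 CPM in control members. E2f1, the transcription factor that drives many of these genes, had 41.8 and 19.2 CPM. In the list of origin licensing and fork genes 14 of 21 were higher and 0 lower. The list of chromatin assembly genes went the other way, with 3 of 15 higher and 9 lower (11920 CPM in mutant, 14832 CPM in control members). Its counts were the same in mesenchymal members. The histone genes Hist1h2ap, Hist1h2ae, Hist1h1b and Hist1h2an were lower in mutant members as well, with ratios of 0.567, 0.788, 0.812 and 0.334.

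The G2/M list went partly the other way. Of its 52 genes, 5 were higher and 21 lower, against 20.8% higher and 9.56% lower over all genes. The median log2 ratio was -0.12, and the sign of that median changed with the way cells were weighted. It was 0.073 for the mean of per-cell CPM and 0.04 after thinning to 1000 UMIs. TMM scaling shifts every log2 ratio of the cluster by -0.11. Among the lower ones, Cdc20 had 235 CPM in mutant and 336 CPM in control members, and Ube2c had 620 and 816 CPM. Mki67 and Top2a, in the same list, lay slightly higher, with ratios of 1.10 (1.02 to 1.19) and 1.12 (1.06 to 1.18).

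Within the mesenchymal members, where both libraries had over 50 cells, the same split was seen. The S list was higher for 30 of 42 genes and lower for 1 (median log2 0.56), and the G2/M list was higher for 4 of 52 and lower for 22 (median -0.17, but 0.10 after thinning to 1000 UMIs), against backgrounds of 19.2% higher and 9.12% lower. Ccne1 had 33.6 CPM in mutant and 10.4 CPM in control cells, Ccne2 had 86.9 and 30.9 CPM, and Cdc6 had 31.0 and 9.22 CPM. Of 7 measured p53 targets 5 were higher in mesenchymal members, and of 13 measured genes of CDK inhibitors and quiescence 9, with 0 lower in both lists. Near cluster 22 these were 0 of 5 and 1 of 12 higher, with 0 and 3 lower (background 7.3% higher, 6.36% lower). At 1000 UMIs per cell, the mesenchymal members held 27.8 (24.6 to 31.3) S list UMIs per 100 G2/M list UMIs in the mutant and 18.9 (16.9 to 21.1) in the control library. For all of cluster 11 the balance was 28.4 (26.1 to 30.9) in the mutant and 23.9 (22.3 to 25.6) in the control library.

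In members near cluster 22 the medians of both lists lay farther apart than in cluster 11 as a whole. These are 23 mutant and 60 control cells, fewer than 50 in the mutant library, and the match that chose them used no cell cycle genes. The S list was higher in the mutant for 30 of 42 genes and lower for 0, with a median log2 ratio of 0.84, and the G2/M list was lower for 30 of 52 and higher only for Cbx5, with a median of -0.49. At 2-fold, 40 of 3057 genes were higher (1.31%) and 58 lower (1.9%). By interval alone 7.3% of all genes were higher here and 6.36% lower, and the median of all genes was -0.02. Haemoglobin stood at 1905 CPM in mutant and 118 CPM in control cells here, with 95.04% of the mutant counts in 1 cell. Without that cell it stood at 101 CPM in mutant and 118 CPM in control cells. The S list was then higher for 30 genes and lower for 0 (median 0.91), and the G2/M list higher for 1 and lower for 34 (median -0.57). Pcna had 294 CPM in mutant and 141 CPM in control cells (ratio 2.09, 1.71 to 2.54). The helicase subunits Mcm5 and Mcm6 had ratios of 1.94 (1.47 to 2.54) and 2.11 (1.54 to 2.88), and thymidylate synthase, Tyms, had 356 CPM in mutant and 188 CPM in control cells. Among mitotic genes, cyclin B1 (Ccnb1) had 75.9 CPM in mutant and 237 CPM in control cells, the kinetochore motor Cenpe 57.4 and 233 CPM, and Cdc20 147 and 355 CPM. The kinase Plk1 had 37.1 CPM in mutant and 88.4 CPM in control cells.

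Single cells of both libraries spanned a wide range. In the median cell near cluster 22, S list UMIs were 29.2% of S plus G2/M list UMIs in the mutant and 10.2% in the control library. The quartiles were 14.8% and 44.5% in mutant and 7.30% and 18.9% in control cells, so the 2 groups overlapped. Cells with more S than G2/M UMIs were 2 of 23 in the mutant and 5 of 60 in the control library. At 1000 UMIs per cell the balance was 36.2 (28.2 to 46.0) S per 100 G2/M UMIs in mutant and 17.9 (15.1 to 21.2) in control cells. In the cells of cluster 22 the S list stood at 937 CPM in the mutant and 1025 CPM in the control library. Their G2/M list stood at 1149 and 1017 CPM. The clustering set cells with these transcripts apart, so these levels cannot show whether cluster 22 shares the shift. Near cluster 13 the S list was higher for 4 of 41 genes and lower for 1 (median 0.28), against backgrounds of 7.75% and 6.26% by interval (3.42% and 1.68% at 2-fold), and the balance at 1000 UMIs was 29.8 (24.97 to 35.5) in mutant and 19.5 (14.4 to 26.0) in control cells. At 2000 UMIs it was 24.4 (21.3 to 27.7) in mutant and 21.2 (17.3 to 25.7) in control cells, with overlapping intervals. The difference between the shifts near clusters 22 and 13 was not tested. Near cluster 12 the balance at 1000 UMIs was 32.9 (25.2 to 42.6) in 15 mutant and 33.2 (26.1 to 41.9) in 24 control cells. Near cluster 20 it was 15.2 (5.80 to 33.9) in 3 mutant and 14.8 (9.99 to 21.3) in 12 control cells. Near cluster 10 it was 33.8 (23.9 to 47.0) in 11 mutant and 38.3 (20.9 to 67.2) in 3 control cells. Each of these pairs of intervals overlapped.

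**Figure D3:**
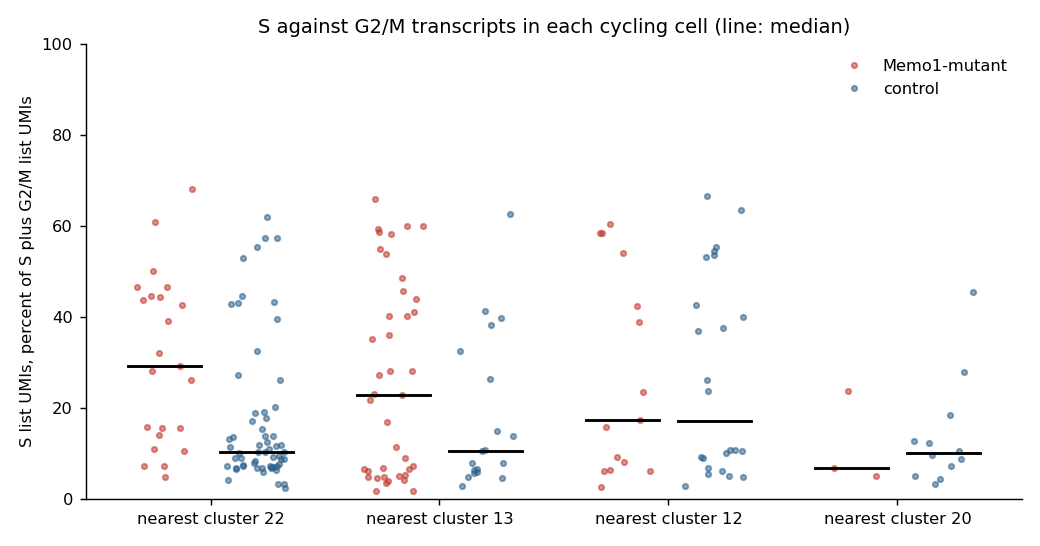
S list UMIs as a percent of S plus G2/M list UMIs (y axis) in each cycling cell of at least 5000 UMIs, by its nearest cluster, with Memo1-mutant cells in red left of control cells in blue and lines at the medians. Near cluster 22 the medians are 29.2% and 10.2%, and the cells of both libraries overlap.

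The epithelial cycling cells, the lineage in which K14 drives Cre, had fewer S list genes past the interval, on fewer UMIs, and the difference from mesenchyme was not tested. With 25 mutant and 66 control cells, the S list was higher for 3 of 42 genes (Prim1, Rrm2 and Atad2) and lower for 0, with a median log2 ratio of 0.18, against a background of 8.68% higher and 4.18% lower by interval (2.68% and 1.27% at 2-fold). The G2/M list was higher for 9 of 52 genes and lower for 4 (median 0.10). Pcna had 184 CPM in mutant and 172 CPM in control cells (ratio 1.07, 0.815 to 1.40), and Ccnb1 had 239 and 222 CPM. At 1000 UMIs the balance was 24.8 (19.1 to 32.0) S per 100 G2/M UMIs in mutant and 26.7 (22.8 to 31.1) in control cells. These intervals overlap, and smaller differences were not detectable at this depth.

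**Figure D4:**
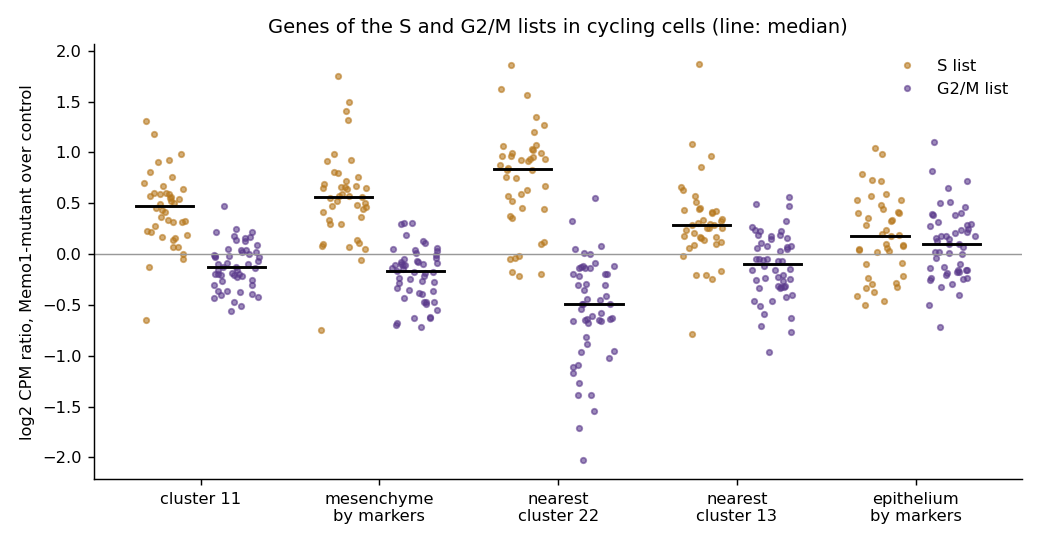
Log2 ratio of CPM, Memo1-mutant over control (y axis), for each gene of the S list (ochre, left) and the G2/M list (violet, right) with at least 20 counts, in cluster 11 and in 4 sets of its cells; lines are medians. The medians near cluster 22 are 0.84 and -0.49, and in epithelial cells 0.18 and 0.10.

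Keratin and adhesion genes of epithelium chose these cells in part, and their levels are given as a description. Of the 10 genes of the incisor epithelial progenitor list 6 had at least 20 counts, with 0 higher and 2 lower. Krt14 had 367 UMIs (877.9 CPM) in mutant and 1204 UMIs in control cells (ratio 0.879, 0.780 to 0.989), and Epcam 883 and 946 CPM. Shh, the signal that the inner enamel epithelium sends to its neighbours, had 751 CPM in mutant and 602 CPM in control cells (ratio 1.25, 1.09 to 1.43), and its receptor gene Ptch1 117 and 80.5 CPM. Of the hedgehog list 2 of 6 measured genes were higher, Shh and Ptch1, and 0 lower. Sp6, a transcription factor of the ameloblast lineage, had 280 and 234 CPM, with an interval that held 1. Trp63, the p63 factor of basal epithelium, had 74.2 CPM in mutant and 144 CPM in control cells (ratio 0.514, 0.339 to 0.756), and Vwde had 5 UMIs in mutant and 97 in control cells, 32.0% of the control UMIs in 1 cell. The stem cell regulator Sox2 had only 11 UMIs in mutant and 35 in control cells (ratio 0.906, 0.415 to 1.83). Memo1 itself had 11 UMIs (26.3 CPM) in mutant and 50 (41.5 CPM) in control cells, a ratio of 0.634 with an interval of 0.298 to 1.23 that holds 1.

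Counts in other lists are to be read against 8.68% of all genes higher and 4.18% lower in these cells. Cdkn1a, the p21 inhibitor of cyclin-dependent kinases, had 105 CPM in mutant and 51.4 CPM in control cells (ratio 2.05, 1.36 to 3.06). It was the single higher gene of the 7 measured p53 targets, and 0 were lower, a count near that background. Of 11 measured genes of Myc and ribosome biogenesis 6 were higher and 0 lower, among them Ncl and Npm1. The FGF feedback genes Spry2, Etv4 and Etv5 were the 3 higher of 7 measured FGF genes, with 0 lower. The enamel matrix gene Amelx had 648 CPM in mutant and 1912 CPM in control cells, but 1 control cell held 60.5% of the control counts. Without the top cell of each library Amelx stood at 645 CPM in mutant and 765 CPM in control cells. Ambn had 74.2 CPM in mutant and 149 CPM in control cells. Ambn was also lower in the mutant library over all other cells, at 0.519 of the control level, and mesenchymal members held 124 CPM of Ambn in the mutant and 277 CPM in the control library.

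In the mesenchymal members, 200 of 3293 genes were at least 2-fold higher in the mutant (6.07%) and 44 lower (1.34%). After thinning to 1000 UMIs 25 were higher and 6 lower, and with per-cell means 307 were higher. Some lists drawn up for other cell types were also higher in the mutant members. Their genes are counted by interval alone, by which 19.2% of all genes were higher in these cells and 9.12% lower. The mural list stood at 824 CPM in mutant and 170 CPM in control cells (6 of 8 measured genes higher, 0 lower). Of its genes, Acta2 had 300 and 28.9 CPM, Tagln 324 and 60.2 CPM, and the pericyte gene Rgs5 16.6 and 8.42 CPM. The cells of cluster 13 also held Acta2 (372 CPM in mutant, 827 CPM in control) and Tagln (949 and 1394 CPM). The macrophage list stood at 254 and 105 CPM (7 of 10 higher, 0 lower) and haemoglobin at 665 and 140 CPM. Near cluster 22, 1 mutant cell held 95.04% of the mutant haemoglobin counts. The part of these lists in the ranking was not tested. The highest ranked were Cartpt, Mmp13, Igfbp5, Tnn, Pmch, Acta2, Il1b, Pbld2, Nupr1, Gpx3, Apod, Thsd4, Crispld2, Postn and Olfml2b. After thinning to 1000 UMIs Thsd4 had a log2 ratio of -0.10, the opposite direction. Cartpt, a neuropeptide gene, had 219 UMIs in 15 mutant cells and 0 in control cells, at least 94.2-fold higher against a floor of 3 counts, with 75.9-fold as the lower bound of the counting interval. It belongs to the leading genes of cluster 13, which held 359 CPM in the mutant and 1.58 CPM in the control library. Tnn, tenascin N of the matrix, had 128 CPM in mutant and 7.22 CPM in control cells, in 30 and 4 cells, and 1 control cell held 83.3% of the control counts. Postn, periostin, had 323 and 48.9 CPM. Some ranks rested on 1 cell: a single mutant cell held 94.4% of the Il1b counts, 87.7% of Mmp13, 73.6% of Apod and 64.1% of Gpx3. Igfbp5, a binding protein of insulin-like growth factors, was spread over 42 mutant cells and had 285 CPM in mutant and 11.6 CPM in control cells.

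The lowest ranked in the mesenchymal members were Gm10709, Gm8797, Dkk1, Smpd3, Gsc, Cwc22, Wnt10a, Car2, Thy1, Rcan2, Fgf3, Plac8, Terf2ip, Hist1h2an and Notum. Dkk1, a secreted Wnt antagonist, had 16.6 CPM in mutant and 133 CPM in control cells, and Wnt10a had 16.6 and 66.6 CPM. Fgf3, a mesenchymal growth factor of the developing tooth, had 48.6 CPM in mutant and 141 CPM in control cells, and Fgf10 had 9.31 and 27.3 CPM. Members near cluster 22 were fewer in the mutant library. Among them alone Fgf3 had 159 CPM in mutant and 189 CPM in control cells (ratio 0.838, 0.660 to 1.05) and Fgf10 16 and 67 UMIs (0.738, 0.399 to 1.29). Dkk1 was lower there too, at 48.9 CPM in mutant and 180 CPM in control cells (ratio 0.272, 0.179 to 0.398). In the cells of cluster 22 Dkk1 stood at 300 CPM in the mutant and 388 CPM in the control library (ratio 0.774, 0.706 to 0.847). Terf2ip had 74.5% of its control counts in 1 cell.

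Genes higher in the mutant could likewise be followed into the members near cluster 13. Igfbp5 had 378 CPM in mutant and 10.2 CPM in control cells there (ratio 37.0, 15.7 to 115), while the cells of cluster 13 had 887 and 448 CPM, a ratio of 1.98. Postn had 492 and 202 CPM (ratio 2.44, 1.96 to 3.05), against 365 and 345 CPM in cluster 13. Acta2 had 425 CPM in mutant and 118 CPM in control members near cluster 13, but 372 CPM in mutant and 827 CPM in control cells of cluster 13, so the direction was opposite in cycling cells and in cluster 13. Without the top cell of each library the cycling cells had 283 CPM in the mutant and 35.2 CPM in the control library. Tnn had 219 and 34.7 CPM near cluster 13 (200.02 and 4.30 CPM without the top cell of each library), against 171 and 150 CPM in cluster 13. Igfbp5 stood at 292 and 6.45 CPM without those cells. These sets were chosen by a match that used the genes themselves, and 19 control cells stand behind the control values.

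**Figure D5:**
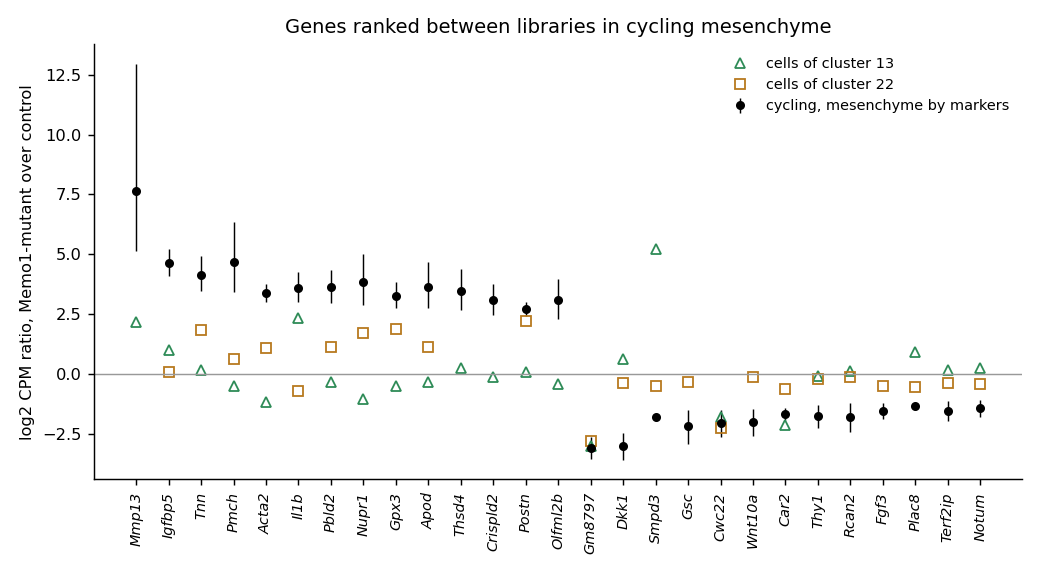
Log2 ratio of CPM, Memo1-mutant over control (y axis), for genes ranked in the mesenchymal cycling cells (black, with 95% counting intervals), beside the cells of cluster 13 (green triangles) and cluster 22 (ochre squares) where these held at least 20 counts; Cartpt, Gm10709 and Hist1h2an are not drawn. Gm8797 and Cwc22 are low in all 3 sets, and Acta2 is high in cycling cells and low in cluster 13.

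Immediate early genes, those that cells switch on first after a stimulus, were higher in the mutant members as a whole. Of the 16 measured, 15 were higher and 0 lower (median log2 1.40, background 20.8% higher), Klf4 being the exception with a ratio of 0.976 (0.779 to 1.22). Fos had 381 CPM in mutant and 105 CPM in control members, Jun 348 and 121 CPM, and Egr1 167 and 64.5 CPM. In epithelial members 0 of 13 were higher or lower (background 8.68% higher, 4.18% lower). Fos had 83.7 CPM in mutant and 63.1 CPM in control cells there. Near cluster 22, 3 of 14 were higher and 1 lower (background 7.3% higher, 6.36% lower). Near cluster 13, 12 of 15 were higher and 0 lower (background 7.75% higher, 6.26% lower). The cells of cluster 13 had 3423 CPM of the list in the mutant and 2494 CPM in the control library, and those of cluster 22 had 826 and 678 CPM.

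Signalling genes moved in both directions, to be read against 20.8% of all genes higher and 9.56% lower. In the Wnt list 5 of 9 were higher in the mutant members (Sfrp2, Lef1, Dkk3, Wif1 and Nkd1) and 3 lower (Wnt6, Wnt10a and Tcf7). In the BMP list the target genes Id1, Id2 and Id3 were higher and Bmp4, Bmp7, Msx2 and Bambi lower, 3 and 4 of 10. Bmp4, a mesenchymal signal of tooth development, had 83.3 CPM in mutant and 180 CPM in control mesenchymal members, but 181 and 206 CPM near cluster 22 (ratio 0.877, 0.701 to 1.09). In the hedgehog list 1 of 8 was higher (Hhip) and 1 lower (Shh, an epithelial gene), near that background. Of the 10 measured genes of the Memo1, ErbB and motility list 4 were higher and 0 lower in cluster 11. In epithelial members 0 of 9 went in either direction, against backgrounds of 8.68% higher and 4.18% lower.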

How the data were processed

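RNA of single cells was measured with the 10x Genomics 3' assay. Per the submitters' processing notes, Cell Ranger, Seurat 3 and mm10 were used; the Cell Ranger version is not given in the sources used here. The deposited values are whole-number UMI counts for 19626 genes in 23528 cells, the shallowest of which has 501 UMIs. Cluster numbers are the authors' own. Members and gene lists were chosen with earlier results of these data known.

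UMIs of each gene were added up per library and set of cells and scaled to CPM. Ratios are Memo1-mutant over control; their 95% intervals are exact for a pair of Poisson counts given the sum, and those of shares are exact binomial (Clopper-Pearson). With 1 library per group there are no p-values. List genes with 20 counts or more counted as higher or lower where the interval excluded 1. Named genes are the list members, the 20 leading genes (ranked after 10 CPM was added on both sides), and in each direction the 15 genes past 2-fold with the interval bound farthest from 1. Sex-linked, mitochondrial, haemoglobin and ribosomal protein genes were left out of that ranking. Of 434 listed genes 8 were not found. Some genes that this rule allows are not reported here.

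The nearest cluster was the one of highest multinomial likelihood, over genes outside the cell cycle. Gene types follow GENCODE on GRCm38. Alternatives were scaling by TMM (edgeR 4.0.16) and by DESeq2 1.42.0 size factors, a total without abundant transcripts, stricter cell limits, leaving out the deepest 5% of cells, thinning, and per-cell means. Analyses used Python 3.11.15, numpy 2.4.6, scipy 1.17.1 and R 4.3.3.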

Additional observations from a re-analysis of the deposited data

How the results depend on the processing

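The S list kept a positive median log2 ratio under all scalings, cell limits and thinnings run, at 0.28 to 0.48 in cluster 11, 0.36 to 0.56 in mesenchymal members and 0.75 to 0.91 near cluster 22, where the G2/M median was -0.58 to -0.20. Leaving out the mutant cell near cluster 22 with most haemoglobin, and the top cell of each library for single genes, was chosen after seeing the data. The G2/M median over cluster 11 turned to 0.073 with per-cell means, and that of mesenchymal members to 0.10 after thinning to 1000 UMIs. Thinning also leaves fewer counts: it gave 52 genes higher in cluster 11, 25 higher and 6 lower in mesenchymal members, and 1 higher and 4 lower near cluster 22. It turned the log2 ratio of Dkk1 to 0.15 and of Srd5a1 to 0.37 in cluster 11, and of Thsd4 to -0.10 in mesenchymal members; the cause was not tested. Per-cell means gave 18 genes lower in cluster 11 and 307 higher in mesenchymal members. Without the CPM filter 836 genes were higher and 224 lower in cluster 11. Without erythroid and immune clusters in the denominator the shares were 2.48% in the mutant and 6.21% in the control library. The balance of S to 100 G2/M UMIs in control members of cluster 11 was 22.1 at 2000 UMIs and 20.1 unthinned; unthinned it was 31.5 in mutant mesenchymal and 21.2 in control epithelial members, and near cluster 13 it was 24.4 in the mutant and 21.2 in the control library at 2000 UMIs. Another 34 single-gene values lost the 2-fold call under an alternative, with direction kept. No paired analysis was possible because each group has 1 library. Shallow cells limit the lineage calls, and doublets were not removed.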
